A study of Mus musculus with 12 samples.

Results

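Synaptic vesicle release genes encode the proteins that hold vesicles of neurotransmitter ready at the nerve terminal and fuse them with the plasma membrane. The 9 genes described here, Syn1, Syn2, Syt1, Syt4, Snap25, Stx1a, Vamp2, Rab3a and Syp, were taken by symbol from the 24020 rows of the deposited count table, and all 9 were among the 10737 genes that passed the filter on low counts. Hypothalamus RNA had been sequenced in 12 libraries from mice of the strain Wfs1tm1Koks, which carries a mutant Wfs1 allele, with 4 libraries each from wild-type, heterozygous and homozygous mice. The protocol speaks of 5 hypothalamus animals per genotype, and no label ties a library to an animal, so p-values measure the spread between these libraries. The Wfs1 product, wolframin, sits in the membrane of the endoplasmic reticulum, and its loss causes Wolfram syndrome. The labels used here give no age, sex, treatment or genetic background, and they do not say which part of Wfs1 the allele alters. The homozygous columns of the table are numbered 1, 2, 4 and 5 and the labels of these mice 1 to 4, so column 5 was placed by its genotype and is called homozygous replicate 5.

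At a terminal, synapsins tether vesicles to one another and to the cytoskeleton, and the small GTPase RAB3A rides on the vesicle and helps to bring it to the membrane. Fusion is driven by a SNARE complex formed by VAMP2 on the vesicle with syntaxin 1 and SNAP25 on the plasma membrane. Synaptotagmin 1 is the calcium sensor that triggers fast release, synaptotagmin 4 is a related protein of vesicles and dense-core granules that lacks a normal calcium response in its first C2 domain, and synaptophysin is an abundant membrane protein of the vesicle. In the hypothalamus the same machinery serves fast transmission and, in part, the secretion of neuropeptides.

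The libraries held 979394 to 2330872 counts. Levels are given as CPM, counts scaled to a common library size with TMM factors. The targeted gene, Wfs1, ranged from 114 to 167 CPM in wild-type libraries, 81.8 to 103 in heterozygous ones and 14.8 to 20.1 in homozygous ones, with no overlap. Homozygous replicates 4 and 5 stood apart from the other libraries. The slope of log2 CPM on the GC content of the transcript, per 10 percentage points of GC, was −0.49 and −0.55 in these libraries and −0.03 and 0.02 in the other homozygous libraries, against 0.03 to 0.34 in wild-type and −0.01 to 0.22 in heterozygous libraries. The multi-copy ribosomal RNA precursor Rn45s ranged from 85.8 to 352 CPM in homozygous mice, 352 to 788 in heterozygotes and 958 to 1983 in wild-type mice. The sum of 11 neuronal markers ranged from 4402 to 5635 CPM in wild-type mice, 5115 to 6426 in heterozygotes and 5014 to 6533 in homozygotes. Between homozygous and wild-type mice 4 of the 11 were called higher (Elavl4, Stmn2, Nefl and Nefm) and 2 lower (Eno2 and Uchl1). Of the tested astrocyte markers 2 of 9 were higher and 2 lower, of oligodendrocyte markers 1 of 8 was higher and 1 lower, and of thalamic markers 2 of 7 were higher. Of all tested genes 13.7% were called higher and 11.6% lower in this comparison. The oligodendrocyte counts were close to those shares, and counts from such short lists are given as description only. The oligodendrocyte sum ranged from 3145 to 3955 CPM in wild-type mice and from 2033 to 3333 CPM in homozygotes, and the astrocyte sum from 4516 to 5658 and from 5343 to 6823 CPM. Snhg11 (median 2396 CPM over all libraries) was the largest part of the neuronal sum and Slc1a2 (3032 CPM) of the astrocyte sum. Microglial markers summed to 125 to 181 CPM over all libraries. The part of these differences in the results below was not tested. All 10 genes of a hypothalamic list had counts, and the list summed to 952 to 1379 CPM in wild-type mice and 972 to 1339 CPM in homozygotes. That sum was mostly Pmch (median 1031 CPM over all libraries), and the other genes had medians of 3.33 (Agrp) to 48.7 CPM (Cartpt). Of the 9 tested genes of this list, 3 were called lower in homozygotes and 0 higher (Trh −1.08, Pomc −1.12 and Hdc −1.11 on the log2 scale), with a median of −0.48. Of 6 pituitary genes, Gh and Prl were at 0 in every library and Tshb, Cga and Lhb had 39, 8 and 3 counts in all, and Pomc, shared with the hypothalamic list, had 225.

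Compared with wild-type, the hypothalamus of homozygous mice held more RNA of Syn1 (2.23-fold), Syt4 (1.68-fold) and Snap25 (1.52-fold) and less of Rab3a (1.48-fold) and Syn2 (1.47-fold). Differences for Syp, Stx1a, Vamp2 and Syt1 did not pass the test. A gene was called at an adjusted p under 0.05 by edgeR's quasi-likelihood test over all genes, and by that rule 3 of the 9 genes were higher and 2 lower, where 13.7% of all tested genes were called higher and 11.6% lower (25.4% either way). In 5 of the 9 genes, the same 5, homozygous and wild-type libraries did not overlap, against 23.6% of all tested genes. The median log2 fold change of the 9 genes was −0.20, against −0.03 over all tested genes. Their summed level was 9658 ± 852 CPM in wild-type mice, 9787 ± 378 in heterozygotes and 11069 ± 634 in homozygotes (SD, n = 4 each). Syp (3016 CPM) and Snap25 (2873 CPM) were the largest parts of this sum in wild-type mice. Between homozygous and wild-type mice 3 of the 9 log2 fold changes were positive. In whole tissue, a change in the number of cells with a transcript and a change in the amount per cell cannot be told apart.

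**Figure D1:**
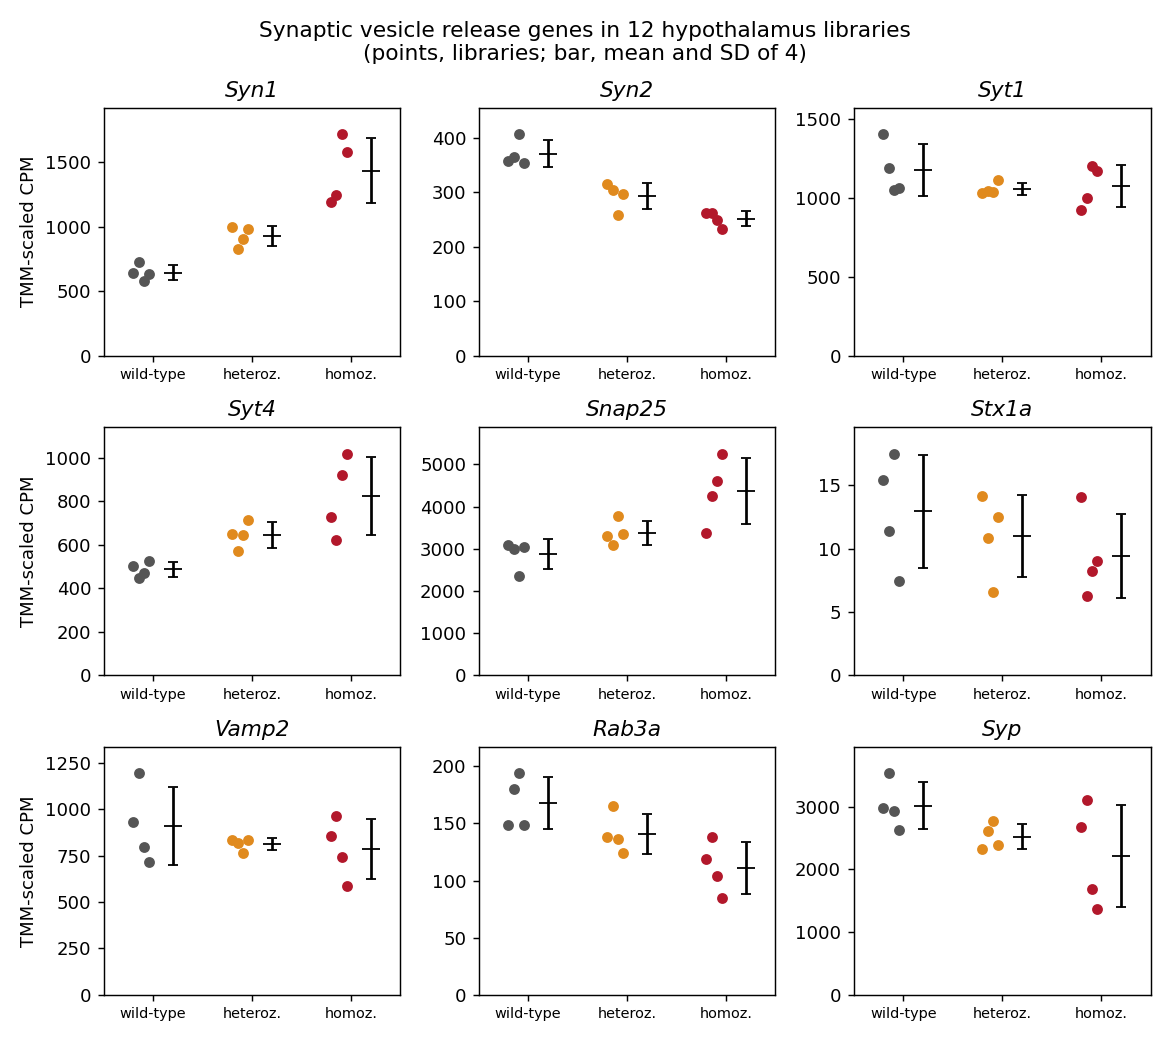
Each panel plots TMM-scaled CPM (y axis, from 0) of 1 of the 9 genes. Points are the 12 libraries, placed by genotype (x axis), and bars give means and SDs over 4 libraries. Syn1 climbs from 575 to 722 in wild-type to 1192 to 1716 in homozygous libraries without overlap, while the 4 homozygous libraries of Syp spread from 1371 to 3104.

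The synapsin genes moved in opposite directions. The sequence before their start sites is shown first as a description, and its part in these changes was not tested. RefSeq (GRCm38.p6) promoter windows, 250 bases before to 50 after a start site, were matched for 6 of the 9 genes (9 windows). They were searched on both strands for the RE1 element, to which the repressor of neuronal genes REST binds (up to 3 mismatches), and for the cyclic AMP response element CRE (TGACGTCA, no mismatch, its own reverse complement). Both were found in the window of Syn1 and neither in the windows of the other 5 genes matched (Stx1a, Syn2, Rab3a, Syt1 and Syp). No window was matched for Snap25, Vamp2 or Syt4. Snap25 and Syt4, which also rose, were therefore not searched, and the search cannot set Syn1 apart from them. RE1 was present in 31 of all 32851 windows (0.0944%) and CRE in 588 (1.79%). The Syn1 sequence lies at chrX:20921005-20921168 on the minus strand, upstream of the annotated gene, with the RE1 match (from −232 relative to the RefSeq start, 1 mismatch) and the CRE (from −159) in capitals. The Syn2 sequence lies at chr6:115134652-115134901 on the plus strand and has no capitals because neither motif was found. A match of letters is a description and shows no binding.
Syn1: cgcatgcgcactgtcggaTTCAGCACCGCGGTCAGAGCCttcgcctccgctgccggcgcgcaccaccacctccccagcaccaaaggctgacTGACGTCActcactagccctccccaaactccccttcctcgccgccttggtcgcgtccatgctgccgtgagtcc
Syn2: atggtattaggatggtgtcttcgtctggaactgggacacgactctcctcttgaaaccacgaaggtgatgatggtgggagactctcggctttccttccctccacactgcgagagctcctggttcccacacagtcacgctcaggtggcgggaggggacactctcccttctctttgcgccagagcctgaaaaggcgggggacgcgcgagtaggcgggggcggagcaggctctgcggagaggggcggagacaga

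Syn1 encodes synapsin 1 (ENSMUSG00000037217.15; mm10 chromosome X, 20860511 to 20921004, minus strand, protein coding). Wild-type values were 641, 722, 575 and 635 CPM in replicates 1, 2, 3 and 5, heterozygous values 998, 825, 906 and 981 CPM in replicates 1 to 4, and homozygous values 1192, 1247, 1716 and 1574 CPM in replicates 1, 2, 4 and 5. The 3 genotypes did not overlap in any pair, and homozygous replicates 4 and 5 were the highest of all. Genotype means were 643 ± 60.4, 927 ± 79.2 and 1432 ± 253 CPM (SD, n = 4 each). Between homozygous and wild-type mice Syn1 rose by a log2 fold change of 1.15 (SE 0.123, adjusted p = 1.57e-06, edgeR). The call was present in all 23 alternative fits tried, with values of 0.79 to 1.68, and without homozygous replicates 4 and 5 the value was 0.93 (adjusted p = 6.66e-07).

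Syn1 was also the 1 gene of the 9 called in the other comparisons, in which the rest of the 9 did not pass. Their log2 fold changes were −0.34 to 0.40 from wild-type to heterozygous (adjusted p = 0.150 to 0.821, edgeR) and −0.32 to 0.37 from heterozygous to homozygous (0.0943 to 0.938). From wild-type to heterozygous it rose by 0.53 (SE 0.122, adjusted p = 0.0446, edgeR), where 0.596% of all tested genes were called, 0.512% higher and 0.0838% lower. Heterozygous and wild-type libraries did not overlap for 3 of the 9 genes (Syn1, Syt4 and Syn2), against 9.34% of all tested genes. Leaving out any 1 wild-type library, or heterozygous replicate 1, 3 or 4, ended that call, with adjusted p up to 0.205. From heterozygous to homozygous it rose by 0.63 (SE 0.121, adjusted p = 0.0125, edgeR), where 2.2% of tested genes were called, 1.74% higher and 0.456% lower. It was 1 of the 9 genes without overlap there, against 9.48% of all tested genes. That call ended without homozygous replicate 4 or heterozygous replicate 2 (adjusted p = 0.0742 and 0.0800), and without homozygous replicates 4 and 5 together the value was 0.40 (adjusted p = 0.259). These comparisons share libraries pairwise and are given side by side only.

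Syn2 encodes synapsin 2 (ENSMUSG00000009394.13; chromosome 6, 115134902 to 115282006, plus strand). It measured 357, 365, 407 and 354 CPM in wild-type mice, 314, 304, 259 and 296 CPM in heterozygotes and 262, 262, 249 and 233 CPM in homozygotes, in the replicate order given for Syn1. Wild-type libraries were all above the others, while heterozygous and homozygous libraries overlapped. Syn2 fell by 0.56 on the log2 scale in homozygous mice (SE 0.110, adjusted p = 0.000872, edgeR). Without homozygous replicates 4 and 5 the value was −0.50 (adjusted p = 0.00757). The change in heterozygous mice was −0.34 (SE 0.108, adjusted p = 0.150), which did not pass. It was called in 2 of 23 alternative fits, DESeq2 (adjusted p = 0.0419) and limma-voom (adjusted p = 0.0497). Syn2 shares 90 exonic bases with Timp4 on the other strand, whose counts summed to 481 over the 12 libraries against 5501 for Syn2.

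The ratio of the synapsins within a library does not depend on how libraries are scaled. It was not adjusted for GC content, which differs between Syn2 (51.6%) and Syn1 (57.9%), and the part of GC content in it was not tested. Syn2 counts over Syn1 counts stood on the log2 scale at −0.84, −0.98, −0.50 and −0.84 in wild-type mice, −1.67, −1.44, −1.81 and −1.73 in heterozygotes and −2.18, −2.25, −2.78 and −2.76 in homozygotes. The genotypes were fully separated. The difference between homozygous and wild-type was −1.70, or 3.25-fold, between means of −2.49 ± 0.321 and −0.79 ± 0.206 (SD, n = 4 each). In an exact two-sided permutation test p was 0.0286 (n = 4 each), the smallest that 4 against 4 libraries allow. After Benjamini-Hochberg adjustment over the 6 ratio tests made it was 0.0343. Since Syn1 was higher and Syn2 lower in homozygous libraries without overlap, that p was fixed in advance. It adds no support to the changes of the 2 genes. Without homozygous replicates 4 and 5 the difference was −1.42, with an exact permutation p of 0.133, the smallest that 2 against 4 libraries allow. The difference was −0.87 from wild-type to heterozygous and −0.83 from heterozygous to homozygous, with the same exact permutation p. From wild-type to heterozygous neither gene overlapped, so p was fixed in advance there too. Syn3, another synapsin gene, named here after its values were seen, was at 150 ± 16.5 CPM in wild-type mice and rose by 0.60 (SE 0.129, adjusted p = 0.00169, edgeR) to 229 ± 28.0 CPM in homozygotes. With the GC slope of each library as a covariate the value for Syn3 was 0.28 (adjusted p = 0.268, edgeR).

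**Figure D2:**
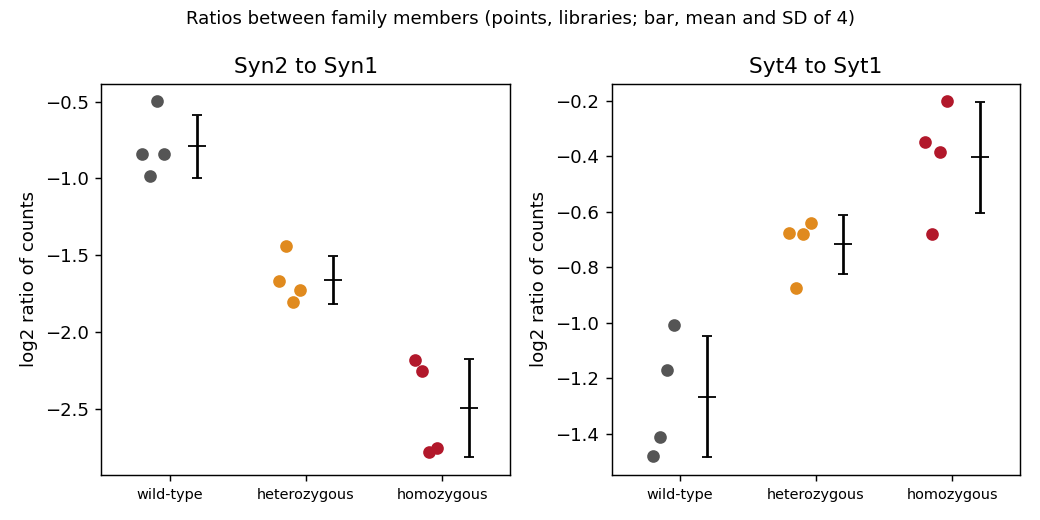
Log2 ratio of counts (y axis) of Syn2 to Syn1 and of Syt4 to Syt1 per library. Points are libraries placed by genotype (x axis), and bars give means and SDs over 4 libraries. The Syn2 to Syn1 ratio steps down from −0.79 to −1.66 and −2.49, and the Syt4 to Syt1 ratio steps up from −1.27 to −0.72 and −0.40.

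Among the synaptotagmins, Syt4 rose and Syt1 did not pass the test. Syt4 (ENSMUSG00000024261.6; chromosome 18, 31437808 to 31447406, minus strand) measured 504, 448, 468 and 527 CPM in wild-type mice, 647, 571, 645 and 715 CPM in heterozygotes and 727, 624, 921 and 1018 CPM in homozygotes. Every heterozygous and homozygous library was above every wild-type library, and homozygous replicates 4 and 5 were the highest. Its log2 fold change in homozygotes was 0.75 (SE 0.132, adjusted p = 0.000330, edgeR), and 0.47 without homozygous replicates 4 and 5 (adjusted p = 0.00713). In heterozygous mice the change was 0.40 (SE 0.132, adjusted p = 0.158). It was called in 4 of 23 alternative fits, 1 of them edgeR without homozygous replicates 4 and 5 (0.41, adjusted p = 0.0171). Syt4 shares 566 exonic bases with the antisense gene Gm26658, and since the strand of counting is not given in the sources used here their reads cannot be told apart.

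Syt1, the sensor of fast release (ENSMUSG00000035864.14; chromosome 10, 108497650 to 109010982, minus strand), measured 1405, 1192, 1052 and 1061 CPM in wild-type mice, 1034, 1047, 1035 and 1113 CPM in heterozygotes and 925, 999, 1203 and 1172 CPM in homozygotes. All 3 genotypes overlapped. The log2 fold change in homozygotes was −0.13 (SE 0.114, adjusted p = 0.412, edgeR). The ratio of Syt4 to Syt1 counts on the log2 scale was −1.48, −1.41, −1.17 and −1.01 in wild-type mice, −0.67, −0.88, −0.68 and −0.64 in heterozygotes and −0.35, −0.68, −0.38 and −0.20 in homozygotes. Wild-type libraries lay below all the others, and homozygous replicate 2 fell among the heterozygous libraries. The difference from wild-type was 0.86 in homozygous and 0.55 in heterozygous mice, each with an exact two-sided permutation p of 0.0286 (adjusted 0.0343, n = 4 each). Without homozygous replicates 4 and 5 the difference between homozygous and wild-type mice was 0.75. Between homozygous and heterozygous mice it was 0.31 (exact permutation p = 0.0857, n = 4 each). This ratio too was not adjusted for GC content, which differs between Syt4 (40.7%) and Syt1 (45.8%), and the part of GC content in it was not tested.

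Of the SNARE proteins, Snap25 rose, and Vamp2 and Stx1a did not pass the test. Snap25 (ENSMUSG00000027273.13; chromosome 2, 136713453 to 136782428, plus strand) measured 3100, 2994, 2355 and 3045 CPM in wild-type mice, 3297, 3077, 3777 and 3352 CPM in heterozygotes and 3385, 4249, 4601 and 5253 CPM in homozygotes. Homozygous libraries were all above wild-type libraries and overlapped with heterozygous ones. The log2 fold change in homozygotes was 0.61 (SE 0.122, adjusted p = 0.00103, edgeR), and 0.42 without homozygous replicates 4 and 5 (adjusted p = 0.0175). Between heterozygous and wild-type it was 0.23 (SE 0.121, adjusted p = 0.394).

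Vamp2 encodes the vesicle SNARE (ENSMUSG00000020894.16; chromosome 11, 69088490 to 69092384, plus strand). It measured 932, 1194, 799 and 715 CPM in wild-type mice, 834, 820, 767 and 835 CPM in heterozygotes and 856, 966, 741 and 589 CPM in homozygotes. The heterozygous libraries lay inside the range of the wild-type libraries, and the homozygous libraries reached below it. The log2 fold change in homozygotes was −0.20 (SE 0.145, adjusted p = 0.326, edgeR), and 0.01 without homozygous replicates 4 and 5.

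Stx1a encodes syntaxin 1A (ENSMUSG00000007207.10; chromosome 5, 135023482 to 135051100, plus strand), and it rests on only 8 to 26 counts per library. It measured 15.4, 11.4, 17.5 and 7.46 CPM in wild-type mice, 14.1, 10.8, 6.59 and 12.5 CPM in heterozygotes and 14.1, 6.29, 8.24 and 9.03 CPM in homozygotes. The genotypes overlapped widely, and the log2 fold change in homozygotes was −0.47 (SE 0.340, adjusted p = 0.326, edgeR), the largest SE among the 9 genes.

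Of the vesicle proteins outside these families, Rab3a fell and Syp did not pass the test. Rab3a (ENSMUSG00000031840.12; chromosome 8, 70754679 to 70758677, plus strand) measured 149, 180, 194 and 149 CPM in wild-type mice, 138, 165, 136 and 124 CPM in heterozygotes and 119, 138, 104 and 84.7 CPM in homozygotes. Homozygous libraries were all below wild-type libraries. The log2 fold change was −0.57 (SE 0.150, adjusted p = 0.00796, edgeR), but without homozygous replicates 4 and 5 it was −0.37 (adjusted p = 0.103). In heterozygous mice it was −0.24 (SE 0.147, adjusted p = 0.469).

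Syp (ENSMUSG00000031144.15; chromosome X, 7638471 to 7653256, plus strand) measured 2978, 3530, 2924 and 2631 CPM in wild-type mice, 2322, 2611, 2768 and 2391 CPM in heterozygotes and 2669, 3104, 1685 and 1371 CPM in homozygotes. Homozygous replicates 1 and 2 lay within the wild-type range, and replicates 4 and 5 were the lowest of all 12 libraries. The log2 fold change in homozygotes was −0.45 (SE 0.171, adjusted p = 0.0575, edgeR). Without homozygous replicates 4 and 5 it was −0.06 (adjusted p = 0.804), and with the GC slope of each library as a covariate it was 0.09 (adjusted p = 0.797). Without homozygous replicate 2 it was −0.66 (adjusted p = 0.00315), and without homozygous replicate 1 it was −0.55 (adjusted p = 0.0262), both past the threshold. Syp shares 875 exonic bases with the antisense gene Gm14703, whose reads cannot be told apart from its own.

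**Figure D3:**
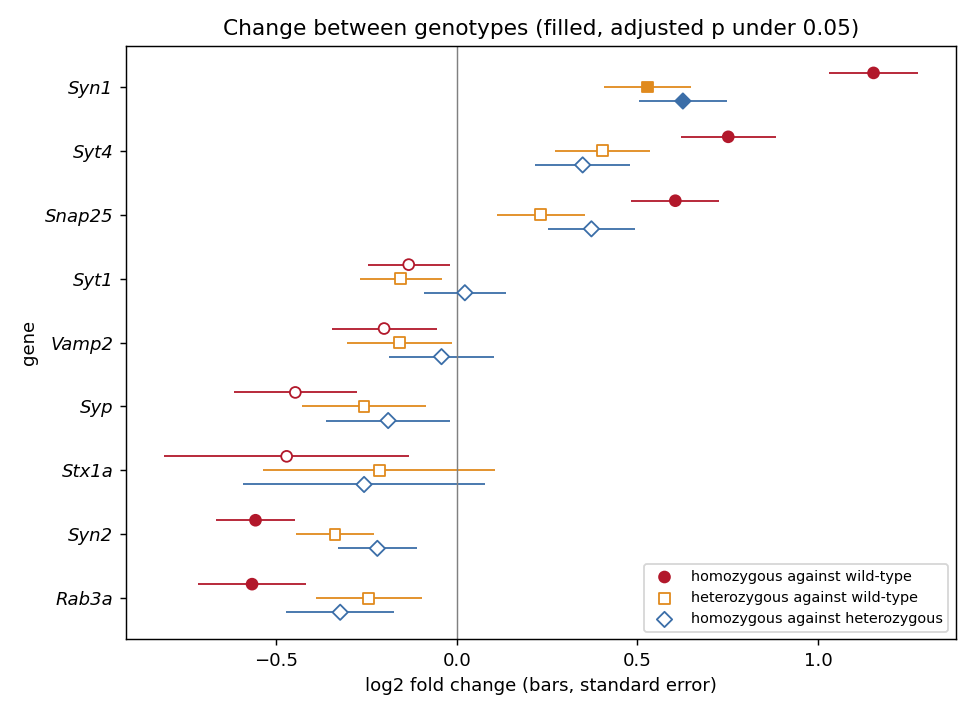
The x axis gives the log2 fold change of each of the 9 genes (y axis) in the 3 comparisons, with SE as bars; filled symbols have an adjusted p under 0.05. Syn1 is filled in all comparisons (1.15, 0.53 and 0.63), and Syt4, Snap25, Syn2 and Rab3a are filled between homozygous and wild-type mice.

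Per kb of exon, the order of levels in wild-type mice was Syp (579 ± 72.0 CPM per kb), Snap25 (423 ± 51.3), Vamp2 (239 ± 54.9), Syn1 (195 ± 18.3), Syt1 (141 ± 19.7), Syt4 (125 ± 9.11), Rab3a (75.4 ± 10.2), Syn2 (52.7 ± 3.47) and Stx1a (4.85 ± 1.66; SD, n = 4). Vamp2 and Syn1, and Syt1 and Syt4, were neighbours within their spread. In homozygous mice the order began with Snap25 (644 ± 115), Syn1 (434 ± 76.8) and Syp (424 ± 156), followed by Syt4 (211 ± 46.1), Vamp2 (207 ± 42.4) and Syt1 (129 ± 16.1). There Syn1 and Syp were within their spread, as were Syt4 and Vamp2. Rab3a, Syn2 and Stx1a remained the lowest at 50.0 ± 10.2, 35.7 ± 1.99 and 3.53 ± 1.25 CPM per kb.

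Transcript GC content moved with the change across the whole table, and it differed among the 9 genes. The 10626 tested genes with a known GC content were divided into 5 classes of equal size. In the class with the lowest GC (31.0% to 43.5%) the median log2 fold change, homozygous over wild-type, was 0.28, with 621 of 2126 genes called higher and 38 lower. In the class with the highest GC (54.9% to 71.1%) it was −0.41, with 66 of 2125 genes called higher and 572 lower. Snap25 (38.7% GC) and Syt4 (40.7%), which rose, belong to the first of these classes. Rab3a (55.0%), which fell, and Stx1a (57.9%) belong to the last. Syn1, with 57.9% GC, is also in the highest class and is 1 of its 66 genes called higher (3.11% of that class). Syp (45.4%) and Syt1 (45.8%) lie in a class with a median of 0.13, and Syn2 (51.6%) and Vamp2 (53.2%) in one with a median of −0.21.

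**Figure D4:**
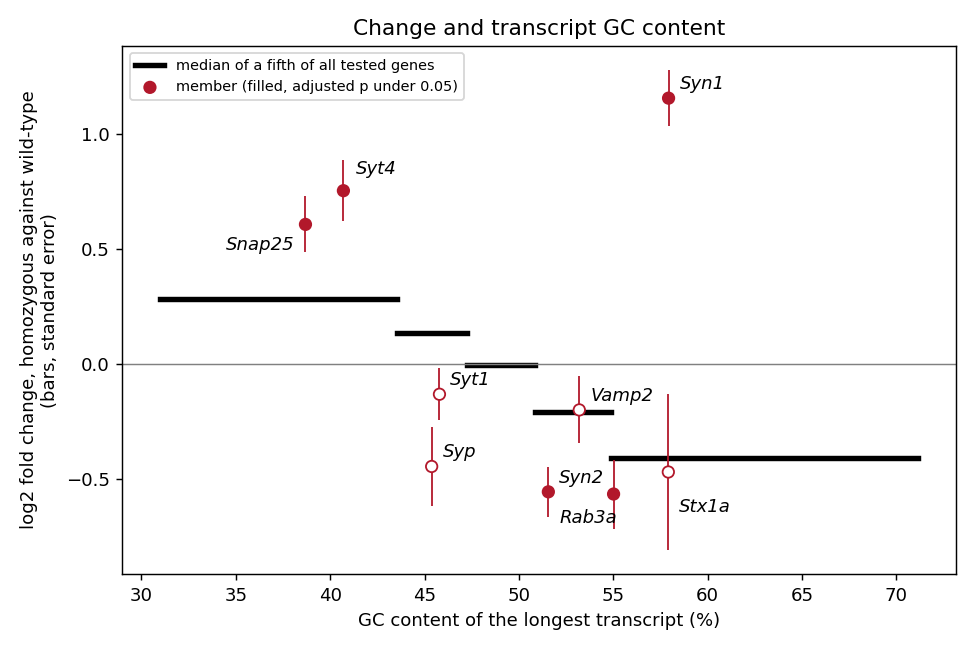
For the 9 genes (points, filled where adjusted p was under 0.05; bars, SE), the log2 fold change of homozygotes over wild-type (y axis) is set against GC content of the longest transcript (x axis); black lines are medians of 5 GC classes of all tested genes. The medians step down from 0.28 to −0.41, and Syn1 stands at 1.15 above the line of its class.

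Fits that take this composition into account changed the values and some of the calls. With the GC slope of each library as a covariate, Syn1 (0.79, adjusted p = 9.65e-05) and Syt1 (−0.42, adjusted p = 0.0395) were called. Syn2 (−0.42, adjusted p = 0.0594), Syt4 (0.31, 0.176), Snap25 (0.25, 0.268) and Rab3a (−0.15, 0.657) were not called in that edgeR fit. Slopes of wild-type libraries were all above those of homozygous libraries and were computed from the tested counts themselves, so composition and genotype cannot be told apart in that fit. With an offset by GC bin, edgeR called Syn1 (1.68, adjusted p = 4.11e-07), Syt4 (0.40, 0.00579), Syn2 (−0.42, 0.00297) and Syp (−0.57, 0.0264), and did not call Snap25 (0.23, 0.0989) or Rab3a (−0.25, 0.125). These offsets were also computed from the tested counts, so composition and genotype cannot be told apart in this fit either.

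**Figure D5:**
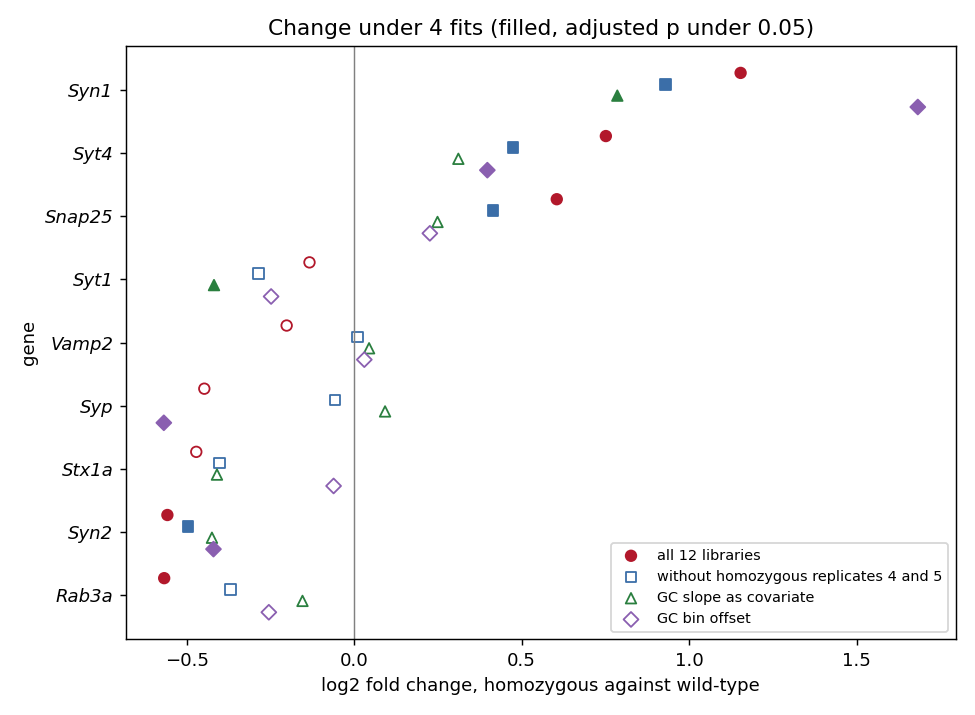
The x axis gives the log2 fold change of homozygotes over wild-type for the 9 genes (y axis) in all 12 libraries, without homozygous replicates 4 and 5, with the GC slope as covariate and with the GC bin offset; filled symbols have an adjusted p under 0.05. Syn1 is filled in every fit (0.79 to 1.68), while Rab3a is filled only in the fit of all 12 libraries without a GC correction.

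Other presynaptic genes were counted in 4 lists, chosen with earlier results of these data known and not matched to all tested genes by level. Of these lists 85 genes were tested. Between homozygous and wild-type mice 15 were called higher and 24 lower (45.9% of those tested, against 25.4% of all tested genes), with a median log2 fold change of −0.13. The count of calls by edgeR, 39 here, was 16 without homozygous replicates 4 and 5, 28 with the GC bin offset and 4 with the GC slope covariate. The share of all tested genes called in those fits was 11.9%, 21.0% and 4.44%, so that with the GC slope covariate the 4 of 85 were close to the share of all genes. Between heterozygous and wild-type mice edgeR called 0 of 85 (0.596% of all tested genes), DESeq2 called 0 (2.07% of all tested genes) and limma-voom 5 (3.67%). By edgeR 16 of the 85 had an unadjusted p under 0.05. The share of all tested genes with such a p was not counted, so the 16 cannot be read as an excess. Between these genotypes edgeR called 7 without homozygous replicates 4 and 5 (3.79% of all genes) and 1 with the GC slope covariate (2.44%). Between homozygous and heterozygous mice edgeR called 1 of 85, Sv2a (−0.54, SE 0.136, adjusted p = 0.0375), where 2.2% of all tested genes were called. It was not called there with the GC slope covariate, with the GC bin offset, without homozygous replicates 4 and 5 or by limma-voom.

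The counts by list, homozygous against wild-type, stand beside 13.7% of all tested genes called higher and 11.6% lower. Of 21 SNARE and priming genes, 3 were higher, a share close to that of all genes, and 4 lower (median log2 fold change 0.05). Snap29, a relative of SNAP25, rose by 0.92 (SE 0.194), the SNARE disassembly adaptor Napa fell by 0.86 (SE 0.189), and the priming factor Unc13a fell by 0.63 (SE 0.157), a call that ended without homozygous replicates 4 and 5 (adjusted p = 0.0708) and with the GC bin offset (0.0601). Of 16 active zone genes, 4 were higher and 6 lower (median −0.08). The scaffold gene Bsn (bassoon) rose by 0.72 (SE 0.127, adjusted p = 0.000345, edgeR) from 356 ± 38.1 to 587 ± 56.3 CPM, the liprin gene Ppfia2 rose by 0.81 (SE 0.143), and the N-type calcium channel gene Cacna1b fell by 0.85 (SE 0.192).

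Of 27 vesicle protein genes, 4 were higher and 7 lower (median −0.14). The vesicle glycoprotein genes Sv2a and Sv2b went opposite ways. Sv2a fell from 479 ± 48.6 to 247 ± 43.7 CPM (−0.94, SE 0.137, adjusted p = 4.43e-05, edgeR), and Sv2b rose from 166 ± 25.5 to 305 ± 66.2 CPM (0.87, SE 0.147, adjusted p = 0.000224, edgeR). Scamp5, a carrier membrane protein of secretory vesicles, fell by 0.98 (SE 0.163). Of 21 vesicle endocytosis genes, 4 were higher and 7 lower (median −0.27). Dnm3, a dynamin, rose by 0.54 (SE 0.119), and Bin1 (amphiphysin 2) and Ap2a1, of the AP-2 adaptor, fell by 0.89 (SE 0.196) and 1.39 (SE 0.256). With the GC slope covariate, Bsn (0.58, adjusted p = 0.0206) and Sv2a (−0.56, adjusted p = 0.0155) stayed called and the other 10 named list genes did not. All 12 were called in edgeR fits leaving out any 1 library.

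The genes with the most similar course over the 12 libraries were found among 9240 tested genes of at least 10 CPM on average, as the smallest root mean square difference of log2 CPM after centring. For Syn1 this was Tpr, a nuclear pore protein gene (difference 0.08, against a median of 0.57 over all genes compared), and for Syn2 it was D030016E14Rik (0.08). Syt4 was closest to the kinase gene Slk (0.08), Syt1 to Tomm20 of mitochondrial protein import (0.07) and Snap25 to the kinesin heavy chain gene Kif5b (0.08). Rab3a was closest to the lipid transporter gene Abca2 (0.05), Vamp2 to Hepacam (0.09), Syp to Ppp1r16b (0.13) and Stx1a to Spopl (0.26). Among the 9 genes themselves, the closest pairs were Syn2 with Rab3a (0.17), Syt4 with Snap25 (0.18) and Rab3a with Syp (0.19), and the farthest was Syn1 with Stx1a (0.80).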

How the data were processed

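Hypothalamus RNA was measured in 12 libraries of 3 genotypes. Per the labels' protocols, cDNA made from 50 ng of RNA by the Ovation V2 kit (NuGEN) was read on a SOLiD 5500xl as pairs of 75 and 35 bp. Genome build mm10 is named in the submitters' processing notes. For aligner, counter, annotation and strand, nothing is given in the sources used here. The authors deposited raw counts per gene symbol, in whole numbers with a different total in each library. Counts of 979394 to 2330872 per library limit the precision of low genes.

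The test was edgeR's quasi-likelihood F test (edgeR 4.0.16, R 4.3.3) on genotype over all 12 libraries, after the default filter (10737 genes) and TMM scaling, with Benjamini-Hochberg adjustment over all genes tested. SE was taken as the absolute log2 fold change over the root of F. Ratios within a library used counts plus 0.5 and exact permutation tests. GC content is that of the longest GENCODE M21 transcript (22612 of 24020 symbols matched), and exon length is the union of exons. Alternatives were DESeq2 1.42.0, limma-voom 3.58.1 with quality weights, other filters and scaling, omitted libraries, a replicate block and GC corrections. The genes and lists were chosen with earlier results of these data known. The text names the 9 genes, the 3 with the smallest p in each list (homozygous against wild-type) and the gene nearest in course to each of the 9. Scripts were tested on simulated data. Libraries of 1 genotype differed by more than counting noise (chi-square per degree of freedom 1.86 to 7.11), so none was counted as a duplicate. Separate preparations from 1 animal could also differ in this way, so the check cannot show that the libraries are separate animals.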

Additional observations from a re-analysis of the deposited data

Results flagged for a closer look

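In 33 groups of 4 libraries (the 9 genes and 2 ratios in each genotype), 2 held a library far from its group by Dixon's criterion, and chance flags about 1 in 20 groups. Syt1 in heterozygous replicate 4 was at 1113 CPM, above the other 3 heterozygous libraries, which lay within 1034 to 1047 CPM. Snap25 in wild-type replicate 3 was at 2355 CPM, below the other wild-type libraries at 2994 to 3100 CPM.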

How the results depend on the processing

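Of the 5 genes called between homozygous and wild-type mice, the same 5 stayed called whichever library was left out. Without single libraries 5 to 6 of the 9 were called, and 1856 to 3076 of all genes (2723 with all 12). With the GC slope covariate 2 of the 9 were called in this comparison, Syn1 and Syt1, and of the 5 genes above only Syn1 stayed called. That fit called 477 genes in all (355 higher, 122 lower), and omission of homozygous replicates 4 and 5 left 1344. With library size alone as scaling, 919 genes were higher and 2199 lower, against 1475 and 1248 with TMM, and the median of all genes was −0.19. That scaling called 7 of the 9, with Syt1 (−0.31, adjusted p = 0.0302) and Syp (−0.60, adjusted p = 0.0154) added by edgeR, and unfiltered edgeR called 6, with Syp (−0.42, adjusted p = 0.00392) added. Between heterozygous and wild-type mice (64 genes, 1 of the 9), the genes called were 262 with the GC slope, 152 with the GC bin offset, 35 with library size alone, 280 unfiltered, 222 by DESeq2, 394 by limma-voom, 382 from these genotypes alone and 430 without homozygous replicates 4 and 5. Of the 9, 0 were called with the offset or library size alone, 3 by limma-voom, and 2 unfiltered, by DESeq2, from these genotypes alone and without homozygous replicates 4 and 5. Leaving out single libraries gave 3 to 218 genes and 0 to 1 of the 9. Between homozygous and heterozygous mice (236 genes, 1 of the 9), the genes called were 1 with the GC slope, 1 without homozygous replicates 4 and 5, 138 with library size alone (66 higher, 72 lower, against 187 and 49), 727 unfiltered, 429 by DESeq2, 78 by limma-voom and 44 from these genotypes alone. Of the 9, 0 were called with the GC slope or without homozygous replicates 4 and 5, and 2 unfiltered. Leaving out single libraries gave 6 to 867 genes and 0 to 2 of the 9. The cause of these shifts was not tested.

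The Syn2 to Syn1 ratio differed between homozygous and wild-type mice by −1.80 to −1.60 without single libraries and by −1.42 without homozygous replicates 4 and 5, and the Syt4 to Syt1 ratio by 0.79 to 0.96 and by 0.75. With fewer libraries the exact permutation test could not pass its threshold. Over the fold changes of the 9 genes and the 12 named list genes, 819 values from alternatives kept direction and side of the threshold, 39 lost and 16 gained significance in the same direction, and 23 changed sign without being called either way.

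Replicate numbers are shared between genotypes, but same-numbered libraries did not deviate together (correlation −0.24 to 0.32 over 8 pairs, over 0.1 in 1). With replicate number as a block, over the 10 libraries that allow it, 1320, 166 and 33 genes were called in the 3 comparisons, in the order given, with 4, 0 and 0 of the 9, and Rab3a was not called between homozygous and wild-type mice (−0.43, adjusted p = 0.0835, edgeR). The same 10 libraries without the block, an alternative chosen after seeing the data, gave 1809, 189 and 13 genes, with 5, 1 and 0 of the 9. Of the 9 genes, Stx1a had the fewest counts, 8 to 26 per library, and how far depth sets its error was not tested.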
